A study of Mus musculus with 6 samples.

Results

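The endothelial identity genes described here are 10 genes whose transcripts mark the cells that line blood vessels: Pecam1, Emcn, Egfl7, Erg, Eng, Vwf, Robo4, Ecscr, Sox18 and Icam2. They were picked by gene symbol, and they and the lists set beside them were chosen with earlier results of these data known. Each has 1 row among the 51826 gene rows of the count table, and all 10 are among the 19027 genes that passed the filter on low counts. The data are bulk RNA sequencing of whole ovaries from ICR mice, an outbred strain, in 3 groups of 2 libraries each. The first group carried the OHSS model, ovarian hyperstimulation syndrome, and received nintedanib (also named bibf1120), an inhibitor of the kinases of the VEGF, PDGF and FGF receptors. The second carried the OHSS model with no agent named, and the third is labelled COH, an abbreviation that the labels leave unexplained. The sources used here give no age, no hormone dose, no dose or timing of nintedanib and no number of animals behind a library. Because separate mice are not stated for the libraries of a group, p-values cover the spread between libraries alone, and that spread may be technical.

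Endothelial cells keep their identity through transcription factors of the ETS and SOX families, which hold on the genes for their surface proteins and secreted proteins. Several of these proteins sit at the junctions between cells or face the blood, where they take part in adhesion, clotting and sprouting. In the ovary, vessels grow anew around each follicle and into each corpus luteum, and in OHSS they leak under the influence of VEGF. In a whole ovary the level of such a transcript depends on how many endothelial cells there are and on how much RNA each holds, and these cannot be told apart in bulk samples.

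Total counts ran from 28498435 to 34716751 per library. Pairs of reads appear to have been counted as 2, since the totals came to 72.1 to 74.0% of the reads but 144.2 to 148.0% of the read pairs. The smallest count of any of the 10 genes in any library was 203, for Vwf. The ovarian markers Cyp11a1, an enzyme of steroid synthesis, and Inha, the inhibin alpha subunit of granulosa cells, lay at 8771 to 12575 CPM (each count scaled to a common library size with TMM factors) and 1961 to 3558 CPM. None of the 10 ovary markers checked was at 0.

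Start sites were available for 5 of the 10 genes in the RefSeq promoter table, which gives 300 bases per site, 250 before and 50 after it, on build GRCm38.p6. Ecscr, Icam2, Pecam1, Sox18 and Vwf have no entry there. The windows are shown because Erg is itself an ETS factor, and the others are genes on which ETS factors are known to act in endothelium. The first listed site of each gene is printed. They are chr9:37401722-37402021 (+ strand) for Robo4, chr3:137340828-137341127 (+) for Emcn, chr2:32646345-32646644 (+) for Eng, chr2:26580833-26581132 (+) for Egfl7 and chr16:95586544-95586843 (- strand) for Erg. Capitals mark AGGAAG or its reverse complement CTTCCT, a longer form of the ETS core, which the first window of Erg lacks.
Robo4: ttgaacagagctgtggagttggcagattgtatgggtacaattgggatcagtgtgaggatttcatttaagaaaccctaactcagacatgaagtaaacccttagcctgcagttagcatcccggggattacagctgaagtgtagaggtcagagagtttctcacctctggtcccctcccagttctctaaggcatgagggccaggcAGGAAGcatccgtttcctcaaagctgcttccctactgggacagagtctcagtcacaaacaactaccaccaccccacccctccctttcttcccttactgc
Emcn: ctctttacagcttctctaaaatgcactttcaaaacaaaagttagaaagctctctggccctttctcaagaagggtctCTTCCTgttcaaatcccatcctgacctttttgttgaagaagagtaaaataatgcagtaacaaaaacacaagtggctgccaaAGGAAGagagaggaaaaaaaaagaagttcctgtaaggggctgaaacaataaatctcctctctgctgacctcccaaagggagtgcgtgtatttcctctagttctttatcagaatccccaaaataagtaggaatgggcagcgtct
Eng: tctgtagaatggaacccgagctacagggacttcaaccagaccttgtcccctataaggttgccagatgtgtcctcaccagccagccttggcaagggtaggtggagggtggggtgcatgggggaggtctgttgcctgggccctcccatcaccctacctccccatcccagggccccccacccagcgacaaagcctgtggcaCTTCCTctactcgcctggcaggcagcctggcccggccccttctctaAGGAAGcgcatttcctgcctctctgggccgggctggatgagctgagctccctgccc
Egfl7: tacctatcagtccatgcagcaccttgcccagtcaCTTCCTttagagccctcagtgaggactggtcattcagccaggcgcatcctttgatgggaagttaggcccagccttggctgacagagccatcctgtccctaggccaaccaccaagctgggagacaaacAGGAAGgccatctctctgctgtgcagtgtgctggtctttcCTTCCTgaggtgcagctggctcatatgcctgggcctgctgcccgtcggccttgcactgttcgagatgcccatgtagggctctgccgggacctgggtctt
Erg: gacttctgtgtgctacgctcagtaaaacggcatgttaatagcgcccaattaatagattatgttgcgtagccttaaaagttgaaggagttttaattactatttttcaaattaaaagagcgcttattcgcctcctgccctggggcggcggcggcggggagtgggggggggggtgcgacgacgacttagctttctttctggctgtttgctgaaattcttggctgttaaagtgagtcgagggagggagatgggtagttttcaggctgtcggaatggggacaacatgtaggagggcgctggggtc

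The 4-base ETS core, GGAA on either strand, was present in 9 of 9 windows of these genes (Egfl7 and Erg have 3 each) and in 96.0% of all 32851 promoter windows of the table, so it sets nothing apart. The longer form AGGAAG, which contains that core, was in 6 of 9 windows, against 35.4% of all windows. It was in at least 1 window of 5 of 5 genes, for which no share over all genes was computed. Emcn and Eng had 2 matches each, Robo4 had 1, and the 3 windows of Egfl7 had 3, 2 and 0. The first and second windows of Erg had 0 and the third had 1. The SOX core ACAAT, searched on both strands, was in 3 of 9 windows (1 each for Emcn, Robo4 and Erg) against 31.0% of all windows, and CGGAAG, which also contains the ETS core, was in 0 of 9 against 16.9%. A match describes letters only, and windows of 1 gene are not independent.

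Levels between the 10 genes were compared only per length, as TPM (counts divided by the length of the annotated exons and scaled to the same sum in every library). Sox18 and Eng were the most abundant, with 154 ± 17.9 and 132 ± 7.07 TPM over all 6 libraries (SD, n = 6), above 95.6 and 94.9% of the genes tested. Next came Pecam1 at 44.3 ± 6.77 TPM and Egfl7 at 40.8 ± 5.85 TPM. Below them lay Ecscr at 20.3 ± 3.60 TPM, Emcn at 19.4 ± 1.26 TPM and Icam2 at 18.9 ± 4.69 TPM. The low end held Robo4 at 11.3 ± 1.73 TPM, Erg at 9.61 ± 1.09 TPM and Vwf at 2.12 ± 1.02 TPM, the last above only 24.1% of the genes tested. Neighbours in this order differed beyond the whole range of the 6 libraries in 3 places: between Eng (lowest 125.5 TPM) and Pecam1 (highest 48.7), between Egfl7 (lowest 32.0) and Ecscr (highest 24.0), and between Erg (lowest 8.31) and Vwf (highest 3.82). The ranges of all other neighbours overlapped. Von Willebrand factor, although a classic endothelial marker, was thus the scarcest of the 10 transcripts per length in every library.

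**Figure D1:**
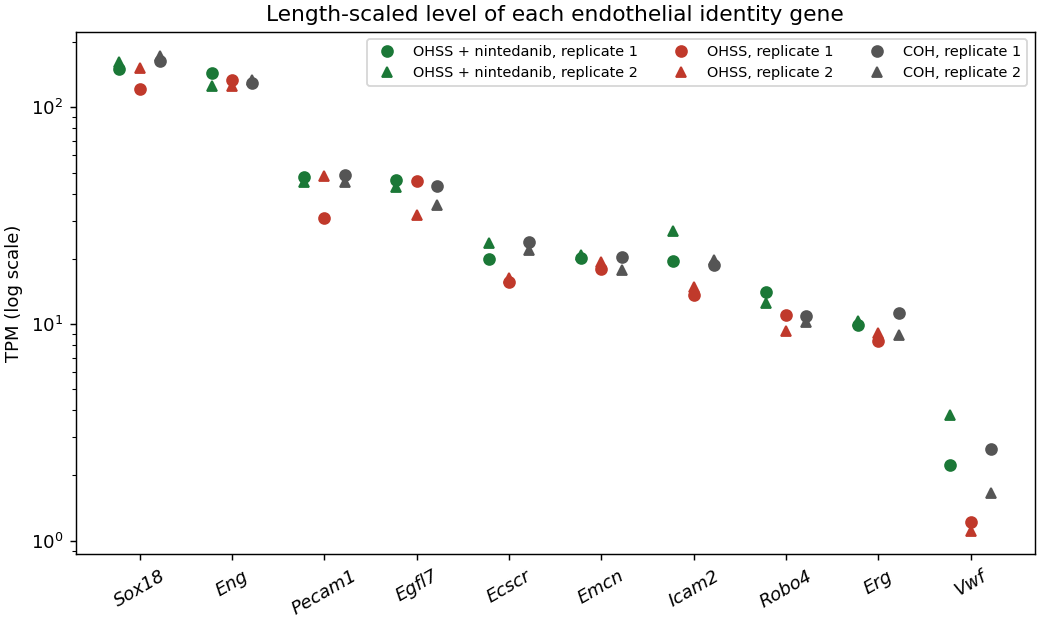
TPM on a log axis for each of the 10 genes, ordered by mean level, with 1 point per library (colour for the group, circle for replicate 1, triangle for replicate 2). Sox18 and Eng lie above 100 TPM in all 6 libraries and Vwf lies between 1.11 and 3.82 TPM, below the other 9 genes.

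Among the surface and adhesion proteins, Emcn (ENSMUSG00000054690), endomucin, a sialomucin of capillary and venous endothelium, was the steadiest. It had 38.9 and 39.5 CPM in nintedanib-treated OHSS ovaries, 37.5 and 39.2 CPM in OHSS ovaries and 39.2 and 36.3 CPM in COH ovaries. The highest library was 1.09 times the lowest, a ratio smaller than that of all but 0.8% of the genes tested, and the groups overlapped. Pecam1 (ENSMUSG00000020717), the junctional adhesion molecule CD31, had 106.0 and 98.8 CPM with nintedanib, 74.3 and 112.0 CPM in OHSS and 108.2 and 106.2 CPM in COH. Its 2 OHSS libraries were the extremes of the whole series, with replicate 1 the lowest and replicate 2 the highest. Icam2 (ENSMUSG00000001029), an adhesion molecule that endothelium carries at rest and that binds the leukocyte integrin LFA-1, had 13.3 and 18.0 CPM with nintedanib, 10.03 and 10.56 CPM in OHSS and 12.7 and 14.1 CPM in COH. The OHSS libraries were the lowest pair. Ecscr (ENSMUSG00000073599), a surface protein that regulates endothelial chemotaxis and apoptosis, had 12.5 and 14.6 CPM with nintedanib, 10.6 and 10.8 CPM in OHSS and 15.0 and 14.4 CPM in COH. Here too both OHSS libraries lay below the other 4.

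The receptors were Eng and Robo4. Eng (ENSMUSG00000026814), endoglin, the co-receptor for BMP9 and TGF-beta on endothelium, had 208.8 and 178.9 CPM with nintedanib, 209.5 and 191.3 CPM in OHSS and 186.8 and 203.5 CPM in COH. The groups overlapped fully, and the highest library was 1.17 times the lowest. Robo4 (ENSMUSG00000032125), the endothelial member of the roundabout receptors that steadies vessels, had 26.7 and 23.5 CPM with nintedanib, 22.5 and 18.4 CPM in OHSS and 20.7 and 20.4 CPM in COH. Both nintedanib libraries lay above the other 4.

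The highest of the 6 libraries was 3.22 times the lowest for Vwf and 1.48 times for Egfl7, the 2 secreted proteins among the 10. Vwf (ENSMUSG00000001930), the multimer that tethers platelets and is stored in Weibel-Palade bodies, had 12.8 and 21.6 CPM with nintedanib, 7.62 and 6.70 CPM in OHSS and 15.2 and 10.1 CPM in COH. The OHSS libraries were the lowest pair, while the 2 libraries differed 1.69-fold within the nintedanib group and 1.52-fold within COH. Its ratio of highest to lowest library was larger than that of 79.1% of the genes tested (median 1.71). Egfl7 (ENSMUSG00000026921), a matrix protein that guides vessel tube formation, had 59.1 and 53.9 CPM with nintedanib, 63.4 and 42.9 CPM in OHSS and 55.1 and 47.6 CPM in COH. As for Pecam1 the 2 OHSS libraries were the extremes, but in the reverse order, with replicate 1 high and replicate 2 low. Egfl7 also hosts the gene of miR-126, and the row Mir126a held 1 count in each of the 6 libraries, so it carries no information on that microRNA.

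For the transcription factors the highest library was 1.25 times the lowest for Erg and 1.38 times for Sox18. Erg (ENSMUSG00000040732), an ETS factor needed to maintain endothelial identity, had 12.2 and 12.6 CPM with nintedanib, 11.2 and 11.7 CPM in OHSS and 13.9 and 11.6 CPM in COH. Sox18 (ENSMUSG00000046470), a SOX factor of vessel and lymphatic development, had 86.8 and 92.8 CPM with nintedanib, 76.1 and 92.6 CPM in OHSS and 94.5 and 105.3 CPM in COH. For Sox18 both COH libraries lay above the other 4, and for Erg the COH pair spanned the nintedanib pair.

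**Figure D2:**
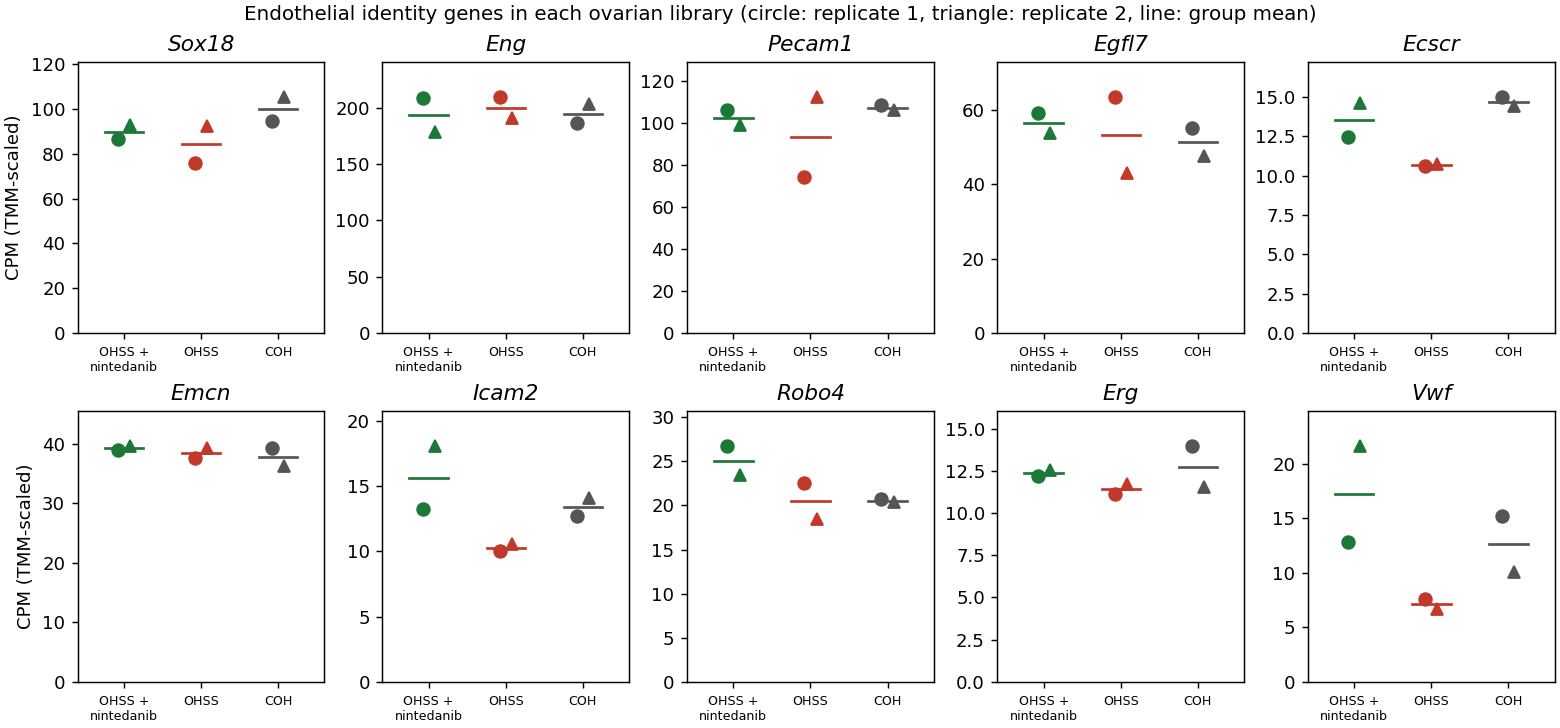
CPM of each gene in every library on axes that start at 0, with nintedanib-treated OHSS, OHSS and COH ovaries from left to right, circles for replicate 1, triangles for replicate 2 and a line at each group mean. Vwf, Icam2 and Ecscr have their lowest pair in OHSS, whereas Pecam1, Egfl7, Robo4 and Sox18 have their widest replicate gap there.

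Taking each gene's lowest library, it was an OHSS library for 8 of the 10 genes, against 33.9% of all genes tested. The 10 transcripts mark the same kind of cell and were read in the same libraries, so they are not 10 independent observations. Here and below, counts of genes set beside shares of all genes are descriptions and no test. OHSS replicate 1 was the lowest for 5 (15.6% of all genes) and OHSS replicate 2 for 3 (18.3%). Relative to the COH mean, the median over the 10 genes was 0.00090 and 0.030 (log2) in the nintedanib libraries, -0.29 and -0.14 in the OHSS libraries and 0.020 and -0.020 in the COH libraries. The medians over all genes tested lay between -0.017 and 0.0017 in the same libraries.

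OHSS against COH asks whether the vessel identity transcripts differ in the syndrome model. Means were lower in OHSS for 7 of the 10 genes, and for Vwf, Ecscr, Sox18 and Icam2 both OHSS libraries lay below both COH libraries. In OHSS, Vwf averaged 7.16 ± 0.651 CPM, against 12.6 ± 3.66 CPM in COH (SD, n = 2 each), a log2 fold change of -0.82 (SE 0.331, 95% interval -1.65 to 0.011), and -0.49 without COH replicate 1. Ecscr averaged 10.7 ± 0.0816 CPM in OHSS, against 14.7 ± 0.389 CPM in COH, a log2 fold change of -0.46 (SE 0.154). Icam2 and Sox18 differed by -0.38 (SE 0.198) and -0.24 (SE 0.135). The 4 of 10 genes with groups apart and lower compare with 22.9% of all genes tested, and the 7 of 10 lower means with 50.4%.

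The test called 0 of the 10 genes at an adjusted p below 0.05 (edgeR's quasi-likelihood F test, adjusted by Benjamini-Hochberg over 19027 genes), where 0.0105% of all genes were called. DESeq2 and limma voom also called 0 of the 10, where they called 1.83% and 0.0% of all genes. At an unadjusted p below 0.05 edgeR had 1 of the 10, Ecscr, which was lower (8.82% of all genes, 4.24% lower), DESeq2 had Vwf and Ecscr (10.2%) and limma voom had Ecscr (8.33%). The edgeR adjusted p of Ecscr was 0.542, with a range of 0.303 to 0.988 over its alternatives, and that of Vwf was 0.571, with a range of 0.406 to 0.988. Emcn, Eng, Egfl7 and Robo4 differed by 0.023 (95% interval -0.24 to 0.29), 0.038 (-0.27 to 0.35), 0.050 (-0.47 to 0.57) and -0.0054 (-0.39 to 0.38). For Emcn and Eng the interval thus leaves room for 0.24 to 0.35 log2 units in each direction, and for Egfl7 for more. Pecam1 differed by -0.20 (interval -0.71 to 0.31), and the value was -0.54 without OHSS replicate 2 but 0.078 without OHSS replicate 1. Erg differed by -0.16 (-0.56 to 0.25). With library size as the only scaling, 10 of 10 genes were lower (median of all genes -0.065), and with RLE scaling 6 of 10 were.

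The second comparison, OHSS with nintedanib against OHSS, addresses the effect of the kinase inhibitor within the model. Means were higher with nintedanib for 9 of the 10 genes, Eng excepted, and for Vwf, Icam2, Ecscr, Robo4 and Erg both nintedanib libraries lay above both OHSS libraries. Vwf averaged 17.2 ± 6.22 CPM with nintedanib and 7.16 ± 0.651 CPM in OHSS (SD, n = 2 each), 2.40-fold higher, a log2 fold change of 1.26 (SE 0.333, 95% interval 0.43 to 2.102). Icam2 averaged 15.6 ± 3.39 CPM with nintedanib and 10.3 ± 0.374 CPM in OHSS, a log2 fold change of 0.60 (SE 0.198, interval 0.11 to 1.10). Ecscr, Robo4 and Erg differed by 0.34 (SE 0.154), 0.29 (SE 0.155) and 0.11 (SE 0.163). The 5 of 10 genes with groups apart and higher compare with 19.2% of all genes, and the 9 of 10 higher means with 51.5%. That number was 10 with library size as the only scaling (median of all genes 0.082), 7 without OHSS replicate 1 and 8 without OHSS replicate 2.

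None of the 10 was called in this comparison by edgeR (0.00526% of all genes called), DESeq2 (1.12%) or limma voom (0.00526%). At an unadjusted p below 0.05 each of the 3 tools had Vwf and Icam2, both higher, against 7.42% of all genes for edgeR (3.95% higher), 8.9% for DESeq2 and 7.12% for limma voom. The edgeR adjusted p was 0.653 for Vwf, with 0.0698 by DESeq2 and a range of 0.0698 to 0.9 over the alternatives, and 0.653 for Icam2, with a range of 0.276 to 0.9. Nintedanib replicate 2 carried much of both values. Without it the log2 fold change of Vwf was 0.84 and that of Icam2 was 0.36, and without nintedanib replicate 1 they were 1.59 and 0.81. Pecam1, Sox18, Egfl7 and Emcn differed by 0.14 (interval -0.37 to 0.64), 0.090 (-0.25 to 0.43), 0.087 (-0.44 to 0.61) and 0.031 (-0.24 to 0.30), and Eng by -0.048 (-0.35 to 0.26). This comparison and the one of OHSS against COH share the OHSS libraries, so a low value there gives opposite signs in both, and their values are given side by side only: -0.82 against COH and 1.26 with nintedanib for Vwf, -0.46 and 0.34 for Ecscr, and -0.38 and 0.60 for Icam2.

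OHSS with nintedanib against COH compares the treated model with the COH ovaries. Means were higher with nintedanib for 5 of the 10 genes (49.9% of all genes) and lower for 5 (50.1%), and the median log2 fold change was 0.022, against -0.0010 over all genes tested. Robo4 averaged 25.1 ± 2.27 CPM with nintedanib and 20.6 ± 0.189 CPM in COH (SD, n = 2 each), a log2 fold change of 0.29 (SE 0.155), the 1 gene with groups apart and higher (22.3% of all genes). Sox18 and Pecam1 had groups apart and lower (22.7% of all genes), at -0.15 (SE 0.135) and -0.066 (SE 0.202). Vwf differed by 0.44 (SE 0.327), with overlapping groups, and by 0.017 without nintedanib replicate 2. The others were Icam2 at 0.22 (-0.018 without nintedanib replicate 2), Egfl7 at 0.14, Emcn at 0.054, Eng at -0.0095, Erg at -0.042 and Ecscr at -0.12. None of the 10 was called by edgeR (0.0263% of all genes), DESeq2 (2.29%) or limma voom (0.0105%), and 0 had an unadjusted p below 0.05 with edgeR (9.7% of all genes), DESeq2 (11.5%) or limma voom (9.29%).

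**Figure D3:**
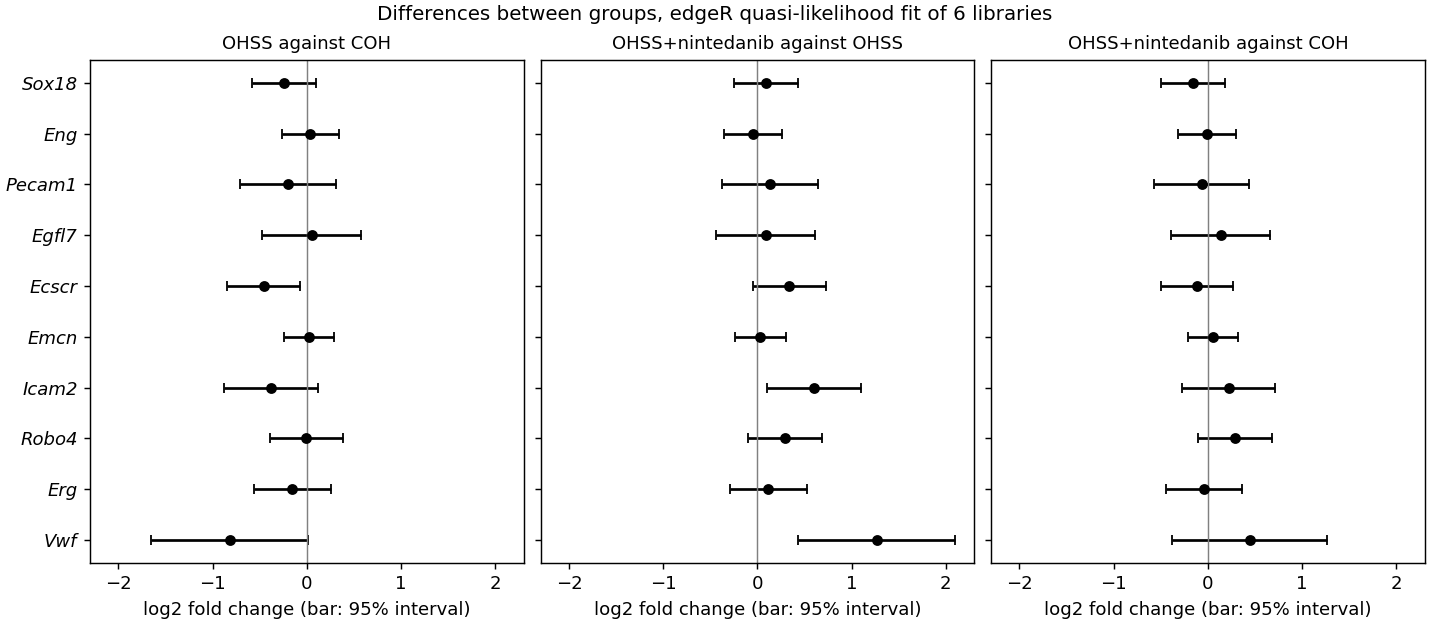
Log2 fold changes (points) with 95% intervals (bars) of the 10 genes in the 3 comparisons, from an edgeR quasi-likelihood fit of all 6 libraries. The intervals are unadjusted, and those of Ecscr in OHSS against COH (-0.46) and of Vwf (1.26) and Icam2 (0.60) in OHSS with nintedanib against OHSS lie clear of 0.

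Endothelial genes outside the 10 give the surroundings of these values. Of 23 other endothelial surface and signalling genes, 19 had lower means in OHSS than in COH, with a median log2 fold change of -0.25, and 20 had higher means with nintedanib than in OHSS, with a median of 0.27. The corresponding medians of the 10 identity genes were -0.18 and 0.12, and those of all genes tested -0.0030 and 0.010. Cdh5, the VE-cadherin of endothelial junctions, had 178.0 and 206.7 CPM with nintedanib, 121.3 and 135.0 CPM in OHSS and 142.8 and 161.4 CPM in COH. It differed by 0.59 (SE 0.129) with nintedanib against OHSS, and both nintedanib libraries lay above the other 4. Clec14a, a lectin-like endothelial surface protein, had 182.9 and 78.5 CPM with nintedanib, 152.7 and 241.7 CPM in OHSS and 186.8 and 156.1 CPM in COH, with no separation of groups. Of the 23 genes, edgeR called 0 in any comparison, limma voom 0, and DESeq2 1 in OHSS against COH (Cldn5; 1.83% of all genes) and 1 with nintedanib against OHSS (Tie1; 1.12%), both named after their values were seen. At an unadjusted p below 0.05, 0 were higher and 4 lower in OHSS against COH (4.24% of all genes were lower), 7 were higher and 1 lower with nintedanib against OHSS (3.95% of all genes were higher), and 1 was higher with nintedanib against COH (9.7% of all genes in either direction). The gene with the lower value was S1pr1, the sphingosine phosphate receptor of endothelium, at -0.89 (named after its value was seen).

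Of 13 other endothelial transcription factors, 10 had lower means in OHSS than in COH (median -0.080) and 8 higher means with nintedanib than in OHSS (median 0.018), 0 had an unadjusted p below 0.05 with edgeR in any comparison, and DESeq2 and limma voom called 0. Epas1, a hypoxia-inducible factor rich in endothelium, had 187.7 and 206.1 CPM with nintedanib, 168.5 and 220.3 CPM in OHSS and 197.9 and 171.5 CPM in COH. Elk3, an ETS factor, had 82.1 and 73.1 CPM with nintedanib, 76.9 and 79.8 CPM in OHSS and 81.4 and 84.2 CPM in COH. In OHSS against COH, Epas1 differed by 0.074 (SE 0.163) and Elk3 by -0.080 (SE 0.105).

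Partners of single genes of the 10 were counted in the same way, and edgeR and limma voom called 0 of them in any comparison. Weibel-Palade body genes, the storage system of Vwf, had 9 of 14 lower in OHSS than in COH (median -0.077) and 8 of 14 higher with nintedanib than in OHSS (median 0.013). Their members of highest mean CPM were Igfbp7 and Cd63, both found in these bodies but also made by other ovarian cells. These differed by 0.020 (SE 0.154) and -0.24 (SE 0.176) with nintedanib against OHSS, beside 1.26 for Vwf. With edgeR, 1, 2 and 3 of the 14 had an unadjusted p below 0.05, against 8.82, 7.42 and 9.7% of all genes. The order is OHSS against COH, nintedanib against OHSS and nintedanib against COH. DESeq2 called 1, 1 and 2 of the 14, against 1.83, 1.12 and 2.29% of all genes. Slit ligands, other Robo receptors and their partners had 8 of 10 higher with nintedanib than in OHSS (median 0.15), where Robo4 stood at 0.29. Robo1 had 106.1 and 115.7 CPM with nintedanib, 119.6 and 75.3 CPM in OHSS and 73.2 and 62.5 CPM in COH. Srgap2, a GTPase-activating partner, differed by at most 0.099 (log2) in any comparison. DESeq2 called 0 of these 10, and 1, 1 and 3 had an unadjusted p below 0.05 with edgeR (8.82, 7.42 and 9.7% of all genes).

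In the endoglin and ALK1 pathway, 14 of 16 genes could be tested, and their medians were 0.064 in OHSS against COH and -0.033 with nintedanib against OHSS. The type II receptor Bmpr2 had 379.2 and 456.7 CPM with nintedanib, 266.8 and 314.6 CPM in OHSS and 245.6 and 256.9 CPM in COH, and both nintedanib libraries were the highest of the series. It was the 1 gene of this list that DESeq2 called, with nintedanib against COH (2.29% of all genes). With edgeR 2, 1 and 1 genes had an unadjusted p below 0.05 in the 3 comparisons (8.82, 7.42 and 9.7% of all genes). Tgfbr1, the type I TGF-beta receptor, differed by -0.39 (SE 0.202) with nintedanib against OHSS, and endoglin by -0.048. Among other ICAM family members and binding partners, with 9 of 10 testable, the median was 0.10 in OHSS against COH and 0.12 with nintedanib against OHSS. Msn and Rdx, actin linkers that bind ICAM tails, differed by 0.40 (SE 0.144) and -0.0015 (SE 0.197) with nintedanib against OHSS, beside 0.60 for Icam2. DESeq2 called 0 of the 9, and 1 had an unadjusted p below 0.05 with edgeR in each comparison (8.82, 7.42 and 9.7% of all genes).

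Markers of other cells that carry some of the 10 transcripts were read beside them. Platelets hold Vwf and Pecam1, and 5 of 11 platelet markers passed the filter. Gp6 was at 0 in every library, and Ppbp and Gp9 did not exceed 0.225 and 0.104 CPM. Pf4 lay at 3.71 and 5.64 CPM with nintedanib, 5.24 and 4.75 CPM in OHSS and 4.36 and 6.55 CPM in COH, with overlapping groups. The summed platelet list ran from 150.2 to 208.0 CPM with nintedanib, 249.5 to 262.1 CPM in OHSS and 144.2 to 174.2 CPM in COH, and Itgb3, which other cells express too, made up 129.7 to 251.7 CPM of these sums. Without Itgb3, set aside after its values were seen, the other 10 platelet markers summed to 8.43 and 11.1 CPM with nintedanib, 10.3 and 11.2 CPM in OHSS and 11.7 and 14.5 CPM in COH, where both COH libraries were the highest.

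Leukocytes carry Pecam1 and Icam2. Their 11 markers summed to 234.7 and 178.8 CPM with nintedanib, 359.9 and 294.2 CPM in OHSS and 404.2 and 441.2 CPM in COH, and 10 of 11 had lower means with nintedanib than in OHSS (median -0.47). Lyz2, a lysozyme of macrophages, led them with 82.2 and 50.7 CPM with nintedanib, 166.7 and 137.4 CPM in OHSS and 239.5 and 262.1 CPM in COH, and the macrophage receptor Csf1r differed by -0.47 (SE 0.143) with nintedanib against OHSS. DESeq2 called Lyz2 with nintedanib against OHSS (1.12% of all genes) and against COH (2.29%), and edgeR and limma voom called 0 of the 11. Pericyte and smooth muscle markers, which wrap vessels, had medians of 0.0096 in OHSS against COH and -0.021 with nintedanib against OHSS, with Acta2 and Tagln at -0.055 (SE 0.110) and -0.13 (SE 0.138) in the second. Lymphatic markers had medians of -0.13 and -0.014, and Ccl21a and Flt4 differed by -0.14 and 0.29 with nintedanib against OHSS. In OHSS against COH they differed by -0.72 (SE 0.218) and -0.079 (SE 0.142), where 5 of the 7 lymphatic markers were lower and 2 higher. With nintedanib against COH they differed by -0.86 (SE 0.218) and 0.21 (SE 0.142), with 4 lower and 3 higher. DESeq2 called Ccl21a in the last (2.29% of all genes), and edgeR and limma voom called 0 of the 7.

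Signs of blood content, RNA and handling also differed between libraries. Erythroid markers had lower means in OHSS than in COH for 5 of 5 genes (median -0.86) and summed to 156.3 and 84.0 CPM with nintedanib, 60.4 and 172.6 CPM in OHSS and 219.5 and 217.6 CPM in COH. Hba-a1 and Hbb-bs, both globins, differed by -0.93 (SE 0.510) and -0.94 (SE 0.620) in OHSS against COH. Of the 12 mitochondrial transcripts listed, mt-Co1 and mt-Cytb had the highest CPM. The 12 had medians of 0.34 in OHSS against COH and -0.37 with nintedanib against OHSS, opposite in sign to those of the 10 genes. Both nintedanib libraries lay below both OHSS libraries for 12 of 12, against 3220 of the 19027 genes tested. In OHSS against COH 9 of 12 had groups apart and higher, against 4030 of 19027. Immediate early genes, which respond within minutes to handling and growth factors, had medians of -0.85 and 0.77, the same signs as the 10 genes. Both OHSS libraries lay below both COH libraries for 5 of 6 (22.9% of all genes). Both nintedanib libraries lay above both OHSS libraries for 4 of 6 (19.2%). DESeq2 called 3 of the 6 in OHSS against COH (1.83%) and 1 with nintedanib against OHSS (1.12%). For this list edgeR and limma voom called 0. Jun had 205.4 and 508.7 CPM with nintedanib, 162.8 and 167.6 CPM in OHSS and 229.6 and 293.9 CPM in COH, so that nintedanib replicate 2 was the highest library for Jun as for Vwf and Icam2, whereas Egr1 was highest in COH replicate 2. Of the ovary markers, Inha and Cyp11a1 differed by 0.090 and 0.19 in OHSS against COH. With nintedanib they differed by 0.56 and -0.31 against OHSS and by 0.64 and -0.12 against COH. DESeq2 called 1 of the 10 ovary markers in OHSS against COH (1.83%), 0 with nintedanib against OHSS and 1, Inha, with nintedanib against COH (2.29%). The part of other ovarian cells, platelets, leukocytes, blood content, RNA and handling in the values of the 10 genes was not tested.

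**Figure D4:**
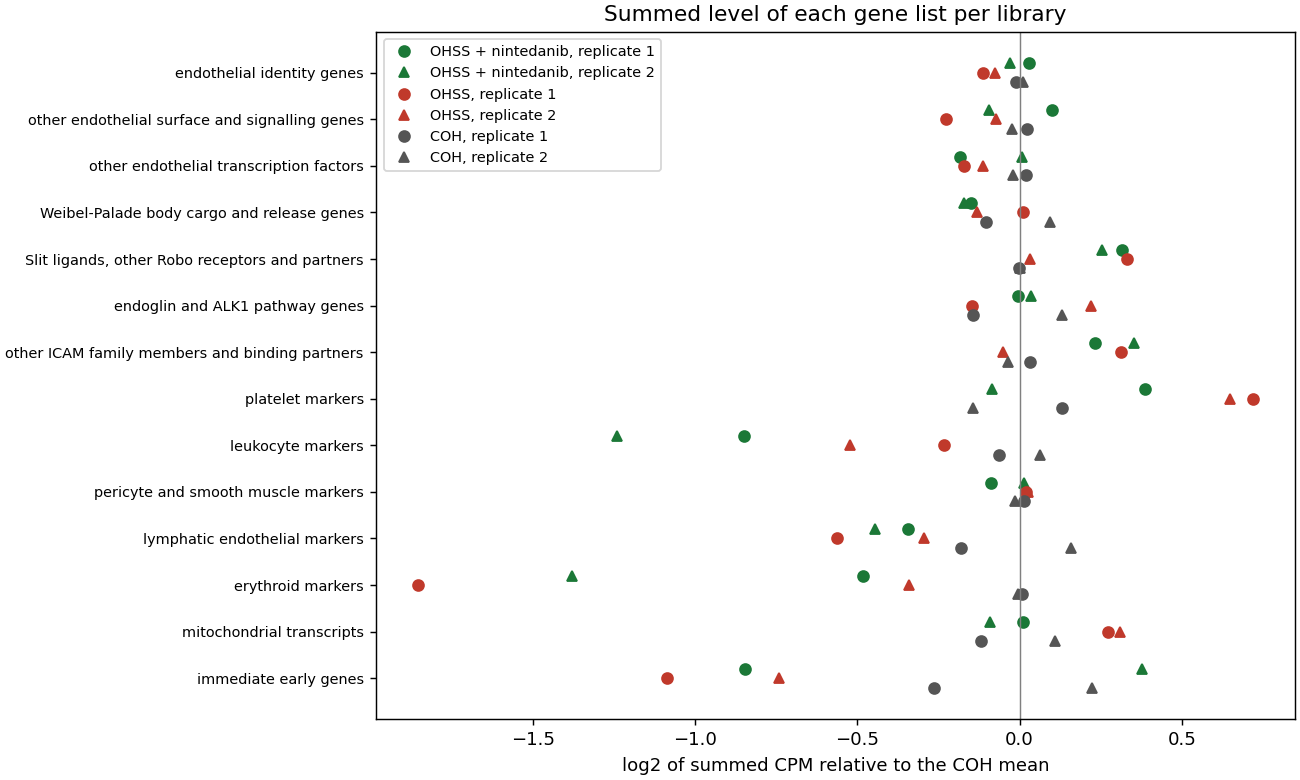
Summed CPM of each gene list except the ovary markers in every library, as log2 relative to the mean of the 2 COH libraries, with green for nintedanib-treated OHSS, red for OHSS and grey for COH ovaries, circles for replicate 1 and triangles for replicate 2. The sums of the endothelial identity genes were 576.9 and 554.2 CPM with nintedanib, 522.8 and 536.2 CPM in OHSS and 561.4 and 569.4 CPM in COH. On this scale they spread less than those of the leukocyte, erythroid and immediate early lists. They spread more than those of the pericyte and smooth muscle list (1737.0 to 1879.6 CPM). Each sum weighs the genes of highest CPM most, here Eng, Pecam1 and Sox18.

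Likeness of pattern was measured as the root mean square distance between centred log2 CPM profiles over the 6 libraries. Of 11488 genes with a mean of at least 5 CPM, the 5 nearest to the mean profile of the 10 genes were Spc24, a kinetochore protein (distance 0.0277), Trmt61a, a tRNA methyltransferase (0.0365), Zmynd19 (0.0365), Zfp874b (0.0381) and Fbxw2, an F-box protein (0.0393). Of the 10 genes themselves Erg was nearest to their shared mean at 0.0944, and 3.6% of the compared genes were nearer than that. Each of the 10 genes is part of that mean, which draws it towards them. A gene that hardly varied, such as Emcn (0.122), also lies near it. Vwf was the farthest at 0.455, with 86.9% of the compared genes nearer. The distance grows with the size of a gene's differences as well as with their shape. Vwf had the largest ratio of highest to lowest library of the 10, so its distance does not show that its shape differs.

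Some rows share sequence with a neighbour, and the sources used here do not say whether the counting used strand. In the GENCODE M21 annotation, exons of Egfl7 share 64 of 3581 bases with Agpat2 on the opposite strand and 264 bases with Gm20532, which had at most 8 counts in a library. Exons of Eng share 61 of 4048 bases with Fpgs on the opposite strand, and those of Ecscr share 62 of 1752 bases with 1700066B19Rik, which had at most 8 counts. The other 7 genes overlap no annotated gene. Levels of Egfl7, Eng and Ecscr are uncertain to that extent. Icam2 and Pecam1 lie close together on chromosome 11, with 2 protein-coding genes, Ern1 and Tex2, between them.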

How the data were processed

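Gene counts were measured by RNA sequencing of whole ovaries in 6 libraries, grouped by their titles. The deposited table holds raw counts of 51826 genes, per the file headers, and no column of it belongs to another sample. Build mm8 and the tools HISAT2 2.1.0, StringTie 1.3.3b and Trimmomatic 0.36 appear in the submitters' processing notes without roles. Which program counted, with which annotation and strand setting, is not given in the sources used here. Deposited read summaries gave the number of reads.

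Genes were filtered with filterByExpr, which left 19027, scaled with TMM factors of 0.961 to 1.03 and tested in 1 fit of the 3 groups with edgeR 4.0.16 (R 4.3.3) by its two-sided quasi-likelihood F test (3 residual and 2.41 prior degrees of freedom). A gene was called where its p, adjusted by Benjamini-Hochberg over all genes, was below 0.05. Standard errors and 95% intervals derive from the F statistic and cover no multiple testing. With 2 libraries against 2 the smallest two-sided p of an exact permutation test is 0.333, so none is given. TPM used exon lengths of GENCODE M21, matched by gene ID for 99.6% of genes. Depth counts read pairs as 2, so counting error is larger than a count alone would give. The pipeline was tested on simulated data.

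The 10 genes and the 14 other lists were chosen with earlier results of these data known. Named are the 10 genes, the 2 genes of highest mean CPM in each list (not scaled by length) and the 5 nearest genes in pattern. The last are of at least 5 CPM and have no predicted, clone or pseudogene name. Genes beyond these (S1pr1, Cldn5, Tie1, Gp6, Ppbp, Gp9) were named after their values were seen. Alternatives were RLE scaling, library size only, no filter, a stricter filter (1 CPM in 4 libraries), DESeq2 1.42.0, limma 3.58.1 voom, a replicate block, only the 2 groups compared and each library left out.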

Additional observations from a re-analysis of the deposited data

How the results depend on the processing

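Under all alternatives, 0 of the 10 endothelial identity genes were called in any of the 3 comparisons. Of 420 single-gene values under the alternatives, 393 kept the direction of the value reported and 27 reversed, 20 of them with a library left out. In OHSS against COH, Robo4 was 0.011 with RLE scaling and 0.011 with DESeq2, and with library size only Emcn, Egfl7 and Eng were -0.039, -0.016 and -0.023. With library size only, Eng was 0.024 with nintedanib against OHSS and 0.00040 with nintedanib against COH. With each library left out, log2 fold changes in OHSS against COH ran from -0.54 to 0.078 for Pecam1, -0.029 to 0.081 for Emcn, -0.24 to 0.30 for Egfl7, -0.022 to 0.10 for Eng and -0.14 to 0.13 for Robo4, and the median of the 10 genes from -0.30 to -0.11. With nintedanib against OHSS they ran from -0.15 to 0.46 for Pecam1, -0.020 to 0.066 for Emcn, -0.16 to 0.38 for Egfl7, -0.17 to 0.060 for Eng and -0.064 to 0.24 for Sox18, and the median from 0.12 to 0.20. With nintedanib against COH they ran from -0.0059 to 0.11 for Emcn, -0.18 to 0.099 for Erg, -0.13 to 0.098 for Eng and -0.018 to 0.42 for Icam2, and the median from 0.00080 to 0.10.

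The number of genes called over the whole table depended on the setting. In OHSS against COH edgeR called 2, and the number was 4 with no filter, 1 with the replicate block, 0 with only the 2 groups compared, 348 with DESeq2, 0 with limma voom and 0 to 2 with each library left out. With nintedanib against OHSS it was 1, with 2, 0, 0 and 213 under the first 4 of these and 0 to 30 with a library left out. With nintedanib against COH it was 5, with 2 under the replicate block, 2 with only the 2 groups compared, 436 with DESeq2, 2 with limma voom and 0 to 53 with a library left out. The cause of these changes was not tested. The replicate block rests on shared numbers only: across genes, the deviations of same-numbered libraries correlated at -0.002 to 0.048 between groups, so the numbers were not taken to pair the samples. It changed the call of none of the 10 genes.

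Each gene had 203 to 6646 counts per library. The intervals are not adjusted for the number of genes, and a gene that was not called is not shown to be the same in both groups.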
